A study of Mus musculus with 3 samples.

Results

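Genes of the unfolded protein response and the integrated stress response were followed in single cells of mouse brain after a transient ischaemic attack (TIA). The set holds 10 of the 32285 genes counted: Atf4, Ddit3, Trib3, Chac1, Asns, Sesn2 and Atf5 form the ATF4 arm, and Hspa5, Xbp1 and Herpud1 form the ER chaperone arm. They were chosen by symbol, and all 10 symbols were found. Ddit3 has 2 entries in the gene list, of which 1 held no molecule in any library, and the 2 were summed.

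Misfolded protein in the endoplasmic reticulum (ER) activates the sensors PERK, IRE1 and ATF6, while amino acid shortage, viral RNA and haem shortage activate other kinases that share a target with PERK, the translation factor eIF2α. Phosphorylated eIF2α slows most protein synthesis but favours translation of Atf4 mRNA, and ATF4 then turns on genes for amino acid supply, redox balance and cell death, whereas IRE1 splices Xbp1 mRNA and XBP1 and ATF6 turn on chaperones and degradation factors of the ER. In brain, these pathways are known for the block of protein synthesis that follows ischaemia, and oligodendrocytes, which make large amounts of membrane protein, are known to be sensitive to ER stress. The values below are mRNA levels, which show neither the translation of Atf4 nor the splicing of Xbp1.

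The data are 3 single-cell libraries from wild-type (WT) C57BL6J mice, each pooled from 3 male mice aged 10 to 12 weeks. The groups are naive mice (control), mice at 24 h and mice at 3 d after a 5 min filament occlusion of the middle cerebral artery, from which the hemisphere on the occluded side was taken. The sample labels call the 24 h and 3 d groups post stroke, whereas the series design calls the procedure experimental TIA. The control is naive in the sample labels, while the article also calls its comparison group sham. If the mice were naive, without surgery or anaesthesia, effects of the surgery and of the occlusion cannot be told apart.

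White matter and meninges were removed, tissue was dissociated with papain, and live cells were sorted, so that cells lost in these steps are not represented. The control, 24 h and 3 d libraries held 4804, 1619 and 5505 cells with 37987228, 12919691 and 48636436 unique molecular identifiers (UMIs, counted mRNA molecules). After removal of cells with fewer than 500 genes or more than 7% mitochondrial UMIs, 4018, 1225 and 4781 cells remained. The 24 h library had the fewest cells and the largest share above the mitochondrial limit, 21.0% against 11.8% in the control and 11.4% at 3 d. Between the libraries 2 cell barcodes were shared by control and 24 h, 7 by control and 3 d, and 2 by 24 h and 3 d.

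Of 10024 kept cells, 9224 fell into 7 classes named from marker genes. The rest were in unnamed clusters (417, 55 and 305 cells in control, 24 h and 3 d) or in a fibroblast cluster of 23 cells. They were not compared as classes. Microglia (1025, 283 and 1275 cells in control, 24 h and 3 d), astrocytes (894, 239 and 1428) and neurons (796, 111 and 376) were the most numerous in the control. The others were endothelial cells (287, 229 and 591), oligodendrocytes (232, 72 and 250), dividing progenitors (199, 52 and 217) and pericytes (159, 182 and 327). Every listed defining marker was detected in every library in each class but the neurons, where 8 of 9 were detected in the control and at 24 h and 9 at 3 d. The neuron cluster met the rule with 7 of its 9 markers, and its leading genes include Adarb2, Grik3, Nxph1, Epha6, Islr2, Myt1l and Prokr2. The neuron list holds Dcx, a marker of immature neurons, beside markers of mature ones. The name neuron therefore does not separate mature from immature cells, and their maturity was not tested.

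Levels are UMIs summed over the cells of a class and library and scaled to a total of 1000000 per class and library (CPM), with a 95% Poisson interval. Each condition is 1 library, so no test between conditions was possible and no value has a replicate. The intervals of levels and of log2 ratios cover counting error only and not the spread between mice. A member was tested in a class when it had at least 30 UMIs over both libraries compared, and it was called changed when its CPM differed at least 2-fold.

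The members changed in few places. Hspa5 and Xbp1 fell in oligodendrocytes at 24 h, and Asns passed the limit upward in neurons at 24 h and in dividing progenitors at 3 d. Of 43 pairs of member and class tested at 24 h, 1 was higher and 2 were lower, with a median log2 ratio of 0.24. Of 48 pairs tested at 3 d, 1 was higher and 0 were lower, with a median of 0.06. Calls included, the interval of the log2 ratio lay above 0 for 13 pairs and below 0 for 6 at 24 h, and above 0 for 9 and below 0 for 9 at 3 d.

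These counts stand beside the share of all genes tested in the same class that passed the same limit. In oligodendrocytes at 24 h, 0 of 5 members tested were higher and 2 were lower, against 3.67% and 6.81% of 9297 genes. In oligodendrocytes at 3 d, 0 of 6 were higher and 0 lower, against 4.62% and 1.19% of genes. Both members called in oligodendrocytes belong to the ER chaperone arm. In neurons at 24 h, 1 of 7 was higher and 0 lower, against 1.02% and 9.03% of genes. In neurons at 3 d, 0 of 7 were higher and 0 lower, against 0.695% and 1.77%. In dividing progenitors the counts were 0 higher and 0 lower of 7 at 24 h, against 4.56% and 3.31%, and 1 higher and 0 lower of 8 at 3 d, against 2.1% and 1.22%. A single call among 7 or 8 members is too few to set apart from these shares.

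The remaining 4 classes had no member past the limit at either time. In microglia 2.46% of all genes were higher and 2.71% lower at 24 h, and 1.73% and 0.943% at 3 d, with 0 of 7 members called each time. In astrocytes the shares were 2.95% and 6.35% at 24 h and 1.68% and 0.994% at 3 d, again with 0 of 7 called. In endothelial cells they were 2.48% and 3.58% at 24 h, with 0 of 5 called, and 3.53% and 0.96% at 3 d, with 0 of 7 called. In pericytes they were 2.59% and 2.83% at 24 h, with 0 of 5 called, and 6.54% and 1.0% at 3 d, with 0 of 6 called. The median log2 ratio over all genes tested lay between -0.04 and 0.06 in every class and time, and scaling by this median in place of the total UMIs moves a ratio by at most 0.06.

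**Figure D1:**
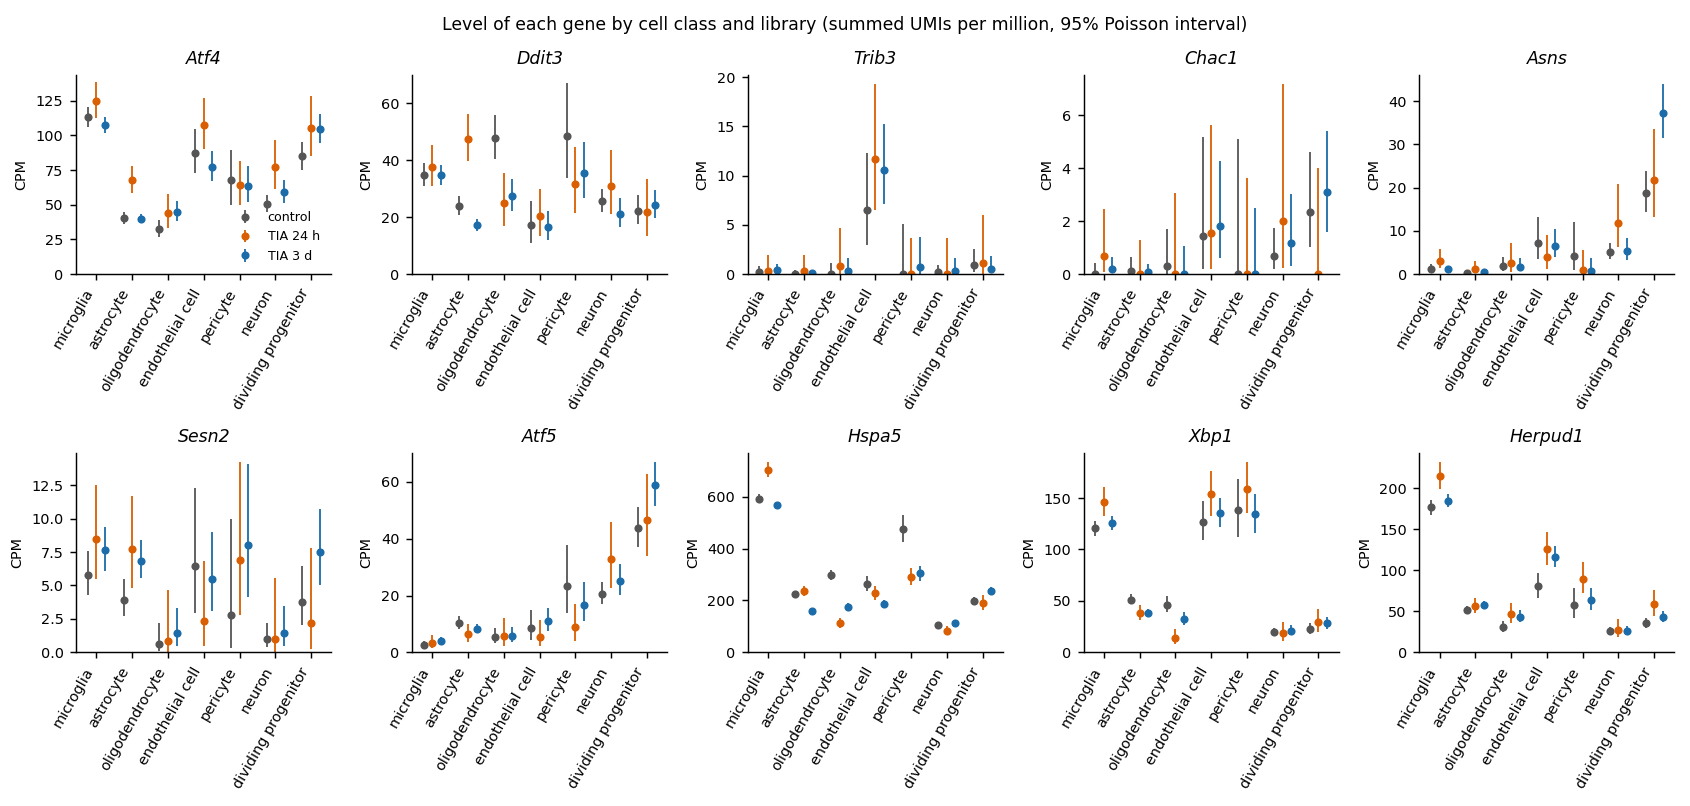
CPM of each of the 10 genes (y axis) in 7 cell classes (x axis) in the control, 24 h and 3 d libraries, with 95% Poisson intervals as bars. Hspa5 in oligodendrocytes goes from 296 CPM in the control to 113 at 24 h and 175 at 3 d.

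In the ATF4 arm, Atf4, the transcription factor at its centre, was highest in microglia in every library and differed between classes by less than 4-fold. In the control it stood at 113 CPM in microglia (106 to 120.3), apart from every other class, and at 32.5 in oligodendrocytes (26.6 to 39.3). Endothelial cells (87.5), dividing progenitors (84.8), pericytes (67.7) and neurons (50.6) followed microglia in that order, each overlapping its neighbour, and astrocytes (40.1) lay apart below neurons and overlapped oligodendrocytes. At 24 h every class overlapped its neighbour in the order, from 125 CPM in microglia to 44.1 in oligodendrocytes. At 3 d the order ran from microglia at 107 CPM, which overlapped dividing progenitors at 105, to astrocytes at 39.8.

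Astrocytes held the clearest difference in Atf4. Their level was 40.1 CPM in the control (36.1 to 44.5), 67.5 at 24 h (58.3 to 77.7) and 39.8 at 3 d (36.5 to 43.2). The 24 h library stood apart from the other 2, with a log2 ratio to control of 0.75 (0.49 to 1.01), below the 2-fold limit, while the 3 d ratio was -0.01 (-0.21 to 0.18). In neurons Atf4 stood at 50.6, 77.5 and 59.0 CPM, with log2 ratios of 0.61 at 24 h (0.23 to 0.98) and 0.22 at 3 d (-0.05 to 0.48). In microglia the ratios were 0.14 and -0.07, in endothelial cells 0.30 and -0.18, and in pericytes -0.08 and -0.09, all with intervals that include 0. In oligodendrocytes (32.5, 44.1 and 45.1 CPM) and dividing progenitors (84.8, 105 and 105 CPM) the 3 d intervals lay above 0, with log2 ratios of 0.47 and 0.30.

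Ddit3 encodes CHOP, a transcription factor that promotes cell death under lasting ER stress. In astrocytes it stood at 23.8 CPM in the control (20.7 to 27.3), 47.4 at 24 h (39.8 to 56.2) and 17.0 at 3 d (15.0 to 19.3). The 24 h level was above both others with no overlap of intervals, and the 3 d level was the lowest. The log2 ratio to control was 0.99 at 24 h (0.67 to 1.31), just under the 2-fold limit, and -0.48 at 3 d (-0.75 to -0.21). From 24 h to 3 d the log2 ratio was -1.48 (-1.79 to -1.16). The 24 h ratio passed the limit when doublets were left out (1.03), under a 5% mitochondrial limit (1.07) and when every cell weighed the same (1.06). It also did so in cells with at most 0.1% of UMIs from markers of other classes (1.03). Over 11 alternative settings the ratio ran from 0.88 to 1.07.

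Oligodendrocytes had the opposite sign in Ddit3. Their level was 47.7 CPM in the control (40.5 to 55.8), 25.0 at 24 h (16.8 to 35.6) and 27.3 at 3 d (22.1 to 33.3). Both TIA libraries lay below the control with no overlap of intervals, at log2 ratios of -0.93 (-1.55 to -0.36) and -0.81 (-1.19 to -0.43), neither past the limit. The 24 h ratio of Ddit3 passed it when only cells failing both filters were left out (-1.01) and when every cell weighed the same (-1.13). It was also past the limit (-1.41) without the 5 cells of each library with the most Ddit3 UMIs. That setting lowers 24 h ratios by construction. In the control, pericytes (48.4) and oligodendrocytes (47.7) overlapped at the top of the order, microglia (34.9) were apart from both neighbours, and neurons (25.6), astrocytes (23.8), dividing progenitors (22.2) and endothelial cells (17.2) overlapped in turn. At 24 h and at 3 d no class was apart from its neighbour, and the top of the order was held by astrocytes at 24 h and by pericytes (35.6) at 3 d. In the classes not named so far the Ddit3 intervals include 0 at both times, with log2 ratios between -0.62 and 0.27.

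Sesn2, which encodes an amino acid and stress sensor that restrains mTORC1, was measured at low levels. In astrocytes it stood at 3.93, 7.73 and 6.86 CPM from 35, 22 and 97 UMIs, with log2 ratios of 0.98 at 24 h (0.14 to 1.78) and 0.80 at 3 d (0.23 to 1.40). Both intervals lie above 0 and neither ratio passes the limit, which the 24 h ratio of Sesn2 did without doublets (1.07), with at most 0.1% of UMIs from markers of other classes (1.01) and with every cell weighing the same (1.12). Over 11 alternative settings that ratio ran from 0.77 to 1.12. In microglia Sesn2 stood at 5.76, 8.46 and 7.62 CPM with intervals that include 0, and in dividing progenitors the log2 ratio at 3 d was 0.98 (-0.01 to 2.05). In oligodendrocytes and neurons it was below 2 CPM in every library. No neighbours in the order of Sesn2 were apart in any library.

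Atf5, a transcription factor whose translation is raised by the same stress signal as that of ATF4, was highest in dividing progenitors and lowest in microglia in every library. The progenitors held 43.7, 46.6 and 58.8 CPM, and microglia held 2.65, 3.38 and 4.08. Pericytes (23.5) and neurons (20.6) came next in the control, with neurons apart from astrocytes (10.3) below them, and neurons came next at 24 h (32.8) and 3 d (25.1). In neurons the log2 ratio of Atf5 was 0.67 (0.07 to 1.23) for 24 h and 0.28 (-0.14 to 0.69) for 3 d. At 24 h 5 neurons held 45.5% of the 33 UMIs, against 15.7% in the control. The 24 h ratio ran from 0.15 to 0.81 over 11 alternative settings. Dividing progenitors had log2 ratios of 0.09 at 24 h and 0.43 at 3 d (0.12 to 0.73). Astrocytes held 10.3, 6.33 and 8.21 CPM, with log2 ratios of -0.71 (-1.53 to 0.03) and -0.33 (-0.74 to 0.08). In pericytes the level was 23.5, 8.87 and 16.8 CPM, with a 24 h log2 ratio of -1.41 (-2.75 to -0.16) from 26 UMIs, too few to be tested.

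Asns, which encodes asparagine synthetase, was also highest in dividing progenitors in every library. There it stood at 18.7 CPM in the control (14.4 to 23.8), 21.7 at 24 h (13.2 to 33.5) and 37.4 at 3 d (31.5 to 44.0), from 64, 20 and 145 UMIs. The 3 d level lay above the control with no overlap and rose 2-fold, a log2 ratio of 1.00 (0.57 to 1.45), whereas the 24 h ratio was 0.22 (-0.59 to 0.96). At 24 h 5 cells held 75.0% of the 20 UMIs, against 28.1% in the control. The 3 d ratio of Asns sits on the limit and was below it when only cells failing both filters were left out (0.83), when scaled by the median ratio of all genes (0.96), without doublets (0.94) and with every cell weighing the same (0.91). In the control and at 3 d progenitors were apart from every other class in Asns, and at 24 h they overlapped neurons.

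In neurons Asns stood at 5.12 CPM in the control (3.45 to 7.30), 11.9 at 24 h (6.16 to 20.8) and 5.31 at 3 d (3.15 to 8.39). The 24 h value passed the limit, with a log2 ratio of 1.22 (0.12 to 2.23), from 30 and 12 UMIs. It rests on few cells: the 5 cells with the most Asns UMIs held 91.7% of the 12 UMIs at 24 h and 36.7% of the 30 in the control. Without cells called doublets the ratio became -0.16. Among the alternatives for cells, clustering and scaling, the call was kept only at a clustering resolution of 0.2 (1.20) and when scaled by the median ratio (1.26). In the 5 other classes Asns had 18 UMIs or fewer in every library and was not tested.

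Trib3, a pseudokinase that ATF4 and CHOP switch on, was highest in endothelial cells in every library. Endothelial cells held 6.46, 11.7 and 10.6 CPM from 9, 15 and 29 UMIs, apart from the class ranked next in each library. In the control their interval (2.95 to 12.3) overlapped that of pericytes, where 0 UMIs allow up to 5.10 CPM. Every other class held 5 UMIs or fewer in each library. The endothelial log2 ratio was 0.86 at 24 h (-0.43 to 2.23), from too few UMIs to be tested, and 0.71 at 3 d (-0.40 to 1.98), an interval that includes 0.

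Chac1, an enzyme that breaks down glutathione and a marker of ATF4 activity, was near the limit of detection. The dividing progenitors held 8, 0 and 12 UMIs, and every other class held 5 or fewer in each library. With 0 UMIs at 24 h, a level of up to 4.0 CPM in progenitors is allowed. Chac1 was not tested in any class.

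The ER chaperone arm differed more between classes than Atf4 and Ddit3 did. Hspa5 encodes BiP, the main ER chaperone and the brake on all 3 sensors. It was highest in microglia, at 592, 704 and 567 CPM in control, 24 h and 3 d, apart from the next class each time, and lowest in neurons, at 107, 82.4 and 112 CPM. Pericytes came next after microglia in each library, at 475, 291 and 304 CPM, apart from both neighbours. In the control, oligodendrocytes (296) and endothelial cells (264) overlapped, and astrocytes (225) and dividing progenitors (196) were apart from their neighbours.

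Oligodendrocytes held the largest change of Hspa5. Their level was 296 CPM in the control (278 to 315), 113 at 24 h (95 to 134) and 175 at 3 d (162 to 189.6), from 975, 136 and 610 UMIs. The 3 libraries did not overlap, with the 24 h library lowest and the 3 d library between the others. At 24 h Hspa5 fell 2.62-fold (log2 ratio -1.39, -1.66 to -1.13), and the log2 ratio at 3 d was -0.76 (-0.91 to -0.61). From 24 h to 3 d the log2 ratio was 0.63 (0.36 to 0.91). Behind microglia and pericytes in the control, oligodendrocytes overlapped neurons, the lowest class, at 24 h.

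Xbp1, the transcription factor that IRE1 activates by splicing, went the same way in oligodendrocytes. Its level was 46.5 CPM in the control (39.4 to 54.5), 14.1 at 24 h (8.24 to 22.7) and 32.7 at 3 d (27.0 to 39.3), from 153, 17 and 114 UMIs. The 24 h library was lowest with no overlap. At 24 h Xbp1 fell 3.28-fold (log2 ratio -1.72, -2.53 to -0.99), and the ratio at 3 d was -0.51 (-0.87 to -0.15). From 24 h to 3 d its log2 ratio was 1.21 (0.47 to 2.04). The 5 cells with the most Xbp1 UMIs held 52.9% of them at 24 h and 13.7% in the control. Both falls were also present in cells with at most 0.1% of UMIs from markers of other classes, at -1.59 for Hspa5 and -2.03 for Xbp1. Under a 5% mitochondrial limit only 32 oligodendrocytes remained at 24 h and the class could not be compared.

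Herpud1, an ER membrane protein of the degradation machinery that ATF4, ATF6 and XBP1 all induce, did not follow Hspa5 and Xbp1 in oligodendrocytes. Its level there was 31.0 CPM in the control (25.3 to 37.6), 46.6 at 24 h (35.2 to 60.5) and 43.6 at 3 d (37.0 to 51.2). The log2 ratios were 0.59 (0.09 to 1.07) and 0.49 (0.12 to 0.87), of the opposite sign to the other 2 genes of the arm and below the limit. The 3 d ratio was 0.09 in cells with few UMIs from markers of other classes.

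Several other measures moved in oligodendrocytes between the same libraries. The 5 erythrocyte markers, led by Hbb-bs, summed to 6566 CPM in the control, 14.1 at 24 h and 4817 at 3 d. Their 7 astrocyte markers summed to 429.8, 217 and 615 CPM (led by Slc1a2 in the control and by Slc1a3 at 24 h and 3 d). The 7 endothelial markers, led by Cldn5 in control and 24 h and by Flt1 at 3 d, summed to 72.6, 8.32 and 141 CPM, and the 6 pericyte markers, led by Vtn, to 24.3, 7.49 and 102 CPM. The 9 neuronal markers summed to 98.7, 264 and 130.4 CPM, of which Tubb3 alone made 40.7, 259.7 and 102. Of 18 immediate early and dissociation genes, 6 of 14 tested were higher and 0 lower at 24 h, and 9 of 18 were higher and 1 lower at 3 d, with summed levels of 1143, 1672 and 1325 CPM. Median UMIs per oligodendrocyte were 13417, 16150.5 and 12901, and median mitochondrial shares were 4.86%, 5.31% and 4.83%. The 4 fibroblast markers summed to 4.56, 0 and 30.2 CPM, led by Col1a2 in the control and by Dcn at 3 d. Not every marker list that moved is given. The part of these measures in the values of Hspa5, Xbp1 and Herpud1 was not tested.

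**Figure D2:**
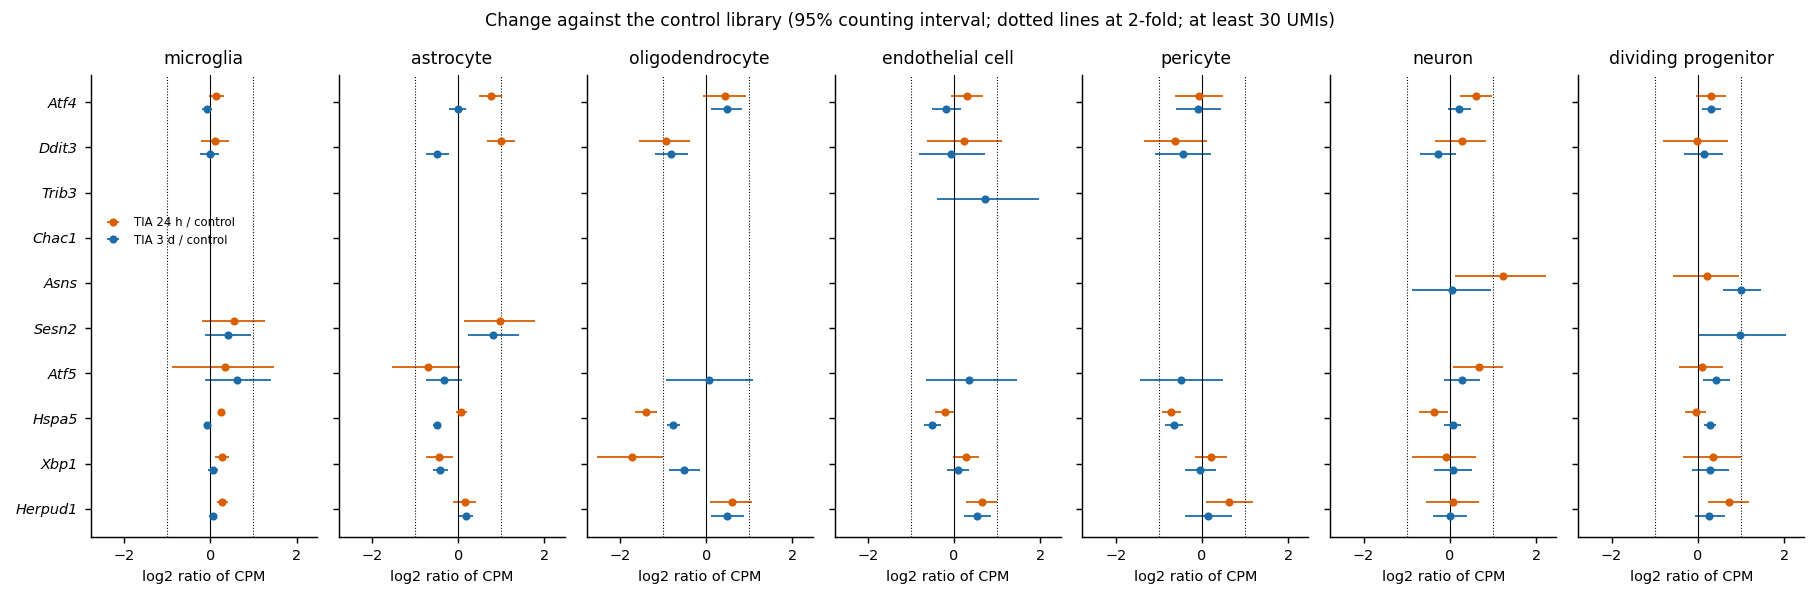
Log2 ratio of CPM (x axis) for each of the 10 genes (y axis) in 7 cell classes, 24 h and 3 d against control, with 95% counting intervals as bars and dotted lines at 2-fold. Points are drawn for at least 30 UMIs, and the lowest 2 are Xbp1 and Hspa5 in oligodendrocytes at 24 h, at -1.72 and -1.39.

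In the vascular classes Hspa5 and Herpud1 went apart. Hspa5 in pericytes was 475 CPM in the control (426 to 528), 291 at 24 h (258 to 326) and 304 at 3 d (277 to 333), with log2 ratios of -0.71 (-0.94 to -0.48) and -0.64 (-0.85 to -0.44). In endothelial cells it was 264, 229 and 185 CPM, with log2 ratios of -0.21 (-0.43 to 0.02) and -0.51 (-0.71 to -0.31). All 4 ratios are negative and none passes the limit. Herpud1 in endothelial cells was 80.3, 126 and 116 CPM, with log2 ratios of 0.64 (0.29 to 1.01) and 0.54 (0.22 to 0.86). In pericytes it was 58.0, 89.7 and 63.8 CPM, with log2 ratios of 0.63 (0.09 to 1.19) and 0.14 (-0.40 to 0.70). Xbp1 was highest in pericytes (138 and 159 CPM in control and 24 h) and, at 3 d, in endothelial cells (135), and these 2 classes and microglia (121, 146 and 126) overlapped in turn in each library and were apart from the classes below. Its vascular intervals include 0 at both times.

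Markers of other types moved in the vascular classes as well. In endothelial cells the astrocyte markers, led by Slc1a2 in control and 3 d and by Gja1 at 24 h, summed to 341, 153 and 306 CPM, the pericyte markers, led by Rgs5, to 245, 232 and 131 CPM, and the erythrocyte markers, led by Hbb-bs, to 416, 25.7 and 94.6 CPM. In pericytes the astrocyte markers, led by Slc1a2, summed to 709, 159 and 1668 CPM, and the erythrocyte markers, led by Hbb-bs, to 163, 52.2 and 7960.2 CPM. Their part in the vascular values of Hspa5, Herpud1 and Xbp1 was not tested.

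In microglia all 3 genes of the arm had positive log2 ratios at 24 h with intervals above 0: 0.25 for Hspa5 (0.18 to 0.32), 0.28 for Xbp1 (0.12 to 0.44) and 0.28 for Herpud1 (0.15 to 0.42). At 3 d the ratios were -0.06, 0.06 and 0.06, and of these only the interval of Hspa5 excluded 0. For Hspa5 the 24 h difference differed between the 2 microglial clusters. In the larger cluster, led by Gpr34, P2ry13 and Aif1 (907, 218 and 999 cells), Hspa5 was 558, 518 and 513 CPM, with a 24 h log2 ratio of -0.11 (-0.20 to -0.01). In the smaller cluster, led by the cytokine genes Cxcl10, Ccl12 and Tnf (118, 65 and 276 cells), it was 845, 1161 and 741 CPM, with a ratio of 0.46 (0.33 to 0.59). Atf4 was likewise higher in the smaller cluster, at 233, 189 and 167 CPM against 96.8, 98.5 and 88.6 in the larger. Its log2 ratios in the smaller cluster were -0.30 (-0.60 to -0.01) at 24 h and -0.48 (-0.71 to -0.25) at 3 d, and in the larger 0.03 (-0.20 to 0.25) and -0.13 (-0.27 to 0.02). Xbp1 had 24 h log2 ratios of 0.26 (0.07 to 0.45) in the larger and 0.20 (-0.15 to 0.55) in the smaller cluster. Those of Herpud1 were 0.15 (-0.02 to 0.32) and 0.06 (-0.18 to 0.31), both below the value of the class, whose cells were in the smaller cluster in 118 of 1025 cases in the control and 65 of 283 at 24 h. At 3 d Hspa5 had ratios of -0.12 (-0.18 to -0.06) in the larger and -0.19 (-0.31 to -0.07) in the smaller cluster. For Herpud1 these were 0.05 (-0.06 to 0.16) and -0.27 (-0.47 to -0.07), and for Xbp1 both intervals included 0. Clusters were drawn from variable genes of the same cells, so that these contrasts are descriptions. Markers of other types moved in microglia too: the 5 erythrocyte markers, led by Hbb-bs, summed to 1154, 19.3 and 99.3 CPM, the 7 astrocyte markers, led by Slc1a3, to 364, 421 and 494 CPM, and the 9 neuronal markers, led by Stmn2, to 27.4, 10.1 and 10.9 CPM. The lists given here are not all that moved. The part of these markers in the microglial values was not tested.

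In astrocytes as a class Hspa5 was 225 CPM in the control (215 to 235), 237 at 24 h (219 to 255) and 159 at 3 d (153 to 166), with log2 ratios of 0.07 (-0.05 to 0.20) and -0.50 (-0.58 to -0.41). Only the 3 d library was low. Xbp1 was 51.4, 38.0 and 38.6 CPM, with log2 ratios of -0.44 (-0.75 to -0.13) and -0.41 (-0.59 to -0.23). Herpud1 was 51.4, 56.9 and 58.2 CPM, with ratios of 0.15 and 0.18. The 2 large astrocyte clusters had the same sign at 24 h for some members and not for others. The 24 h log2 ratios were 0.49 for Atf4 and 0.68 for Ddit3 in the cluster led by Igfbp2 and Cxcl14 (471, 103 and 636 cells), and 1.11 and 1.32 in the cluster led by Gm35552 and Lama3 (323, 115 and 646 cells). In the same order those of Atf5 were -1.11 (-2.62 to 0.11) and -0.34 (-1.42 to 0.64), and those of Sesn2 were -0.10 (-1.86 to 1.33) and 1.59 (0.47 to 2.76). Hspa5 was 244, 223 and 182 CPM in the former, a 24 h ratio of -0.13 (-0.34 to 0.07), and 201, 263 and 143 CPM in the latter, a ratio of 0.39 (0.21 to 0.57), so that a 24 h peak of Hspa5 is present in 1 of the 2.

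Marker levels of other types in astrocytes also moved. The 5 erythrocyte markers, led by Hbb-bs in control and 3 d and by Hba-a1 at 24 h, summed to 812, 23.9 and 742 CPM, the 4 choroid plexus markers, led by Ttr in control and 3 d and by Clic6 at 24 h, to 165, 5.27 and 5.16 CPM, and the 18 dissociation and immediate early genes to 894, 762 and 664 CPM. Of those 18 genes 1 was higher and 8 were lower at 24 h, and 0 were higher and 3 lower at 3 d. The 9 neuronal markers, led by Tubb3 in control and 3 d and by Snap25 at 24 h, summed to 30.6, 8.43 and 19.6 CPM. The lists given are not all the marker lists that moved. The part of these measures in the astrocyte values was not tested.

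Neuronal Hspa5 had log2 ratios of -0.38 at 24 h (-0.73 to -0.05) and 0.06 at 3 d, and neuronal Xbp1 (20.1, 18.9 and 21.2 CPM) and Herpud1 (26.4, 27.8 and 26.5 CPM) had intervals that include 0. Herpud1 was highest in microglia (177, 215 and 185 CPM) and lowest in neurons in each library. In dividing progenitors Hspa5 was 196, 189.8 and 237 CPM, with a 3 d log2 ratio of 0.27 (0.13 to 0.42). That ratio was 0.11 when only cells failing both filters were left out and 0.12 when every cell weighed the same. Progenitor Herpud1 was 35.6, 58.6 and 42.8 CPM, with a 24 h ratio of 0.72 (0.23 to 1.19). Xbp1 in progenitors was 23.0, 29.3 and 28.1 CPM with intervals that include 0.

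Other markers moved in these 2 classes as well. In neurons the astrocyte markers, led by Slc1a2, summed to 910.3, 393 and 1014 CPM, and the erythrocyte markers, led by Hbb-bs, to 2526, 21.8 and 64.9 CPM. In dividing progenitors the 4 choroid plexus markers, led by Ttr, summed to 93.3, 771 and 419 CPM, and the erythrocyte markers to 149, 7.59 and 10283 CPM. Of the 18 dissociation genes tested in neurons 1 was higher and 6 were lower at 24 h, and 1 was higher and 2 lower at 3 d. In progenitors 2 of 17 were higher and 1 was lower at 24 h, and 0 changed at 3 d. The part of these in the values was not tested.

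Other genes of the pathways were read from lists, and the shares of all genes given above for each class and time are the background of their counts. Of the 24 other ATF4 target genes listed, 8 of 20 tested in astrocytes at 24 h were higher and 1 was lower, with a median log2 ratio of 0.54 against 0.01 over all genes. Slc38a2, an amino acid transporter, went from 29.1 to 313 CPM, a log2 ratio of 3.43 (3.23 to 3.63). Slc7a5, which carries large neutral amino acids, went from 13.9 to 47.8 CPM (1.78, 1.42 to 2.14), and Slc7a1, which carries basic amino acids, from 3.15 to 10.5 CPM (1.74, 0.95 to 2.54). The listed transporters Slc6a9 (0.60), Slc3a2 (0.48) and Slc7a11 (-0.26) did not pass the limit and are named after their values were seen. Cebpb, a partner of ATF4, rose from 8.99 to 19.7 CPM (1.13, 0.61 to 1.64). The other 4 higher genes were Nupr1 (1.52), Eif4ebp1 (1.44), Ddit4 (1.15) and Mthfd2 (1.15), named after their values were seen. Atf3 was the gene that fell, from 22.6 to 1.41 CPM (-4.01, -5.90 to -2.63). At 3 d 0 of 20 were higher and Atf3 was lower (8.63 CPM, log2 ratio -1.39).

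In oligodendrocytes 2 of 13 ATF4 targets were higher at 24 h and 1 was lower, against 3.67% and 6.81% of all genes, with a median of 0.23. Ddit4, which restrains mTORC1, rose from 33.1 to 343 CPM (3.37, 3.06 to 3.69), and Slc38a2 from 536 to 1675 CPM (1.64, 1.55 to 1.74). The gene that fell was Slc7a11, the cystine transporter, with 31 and 1 UMIs (-3.50, -8.85 to -0.92), named after its values were seen. At 3 d 6 of 17 were higher and 0 lower, with a median of 0.59: Ddit4 (33.1 to 106 CPM, 1.68), Slc7a11 (9.42 to 24.4 CPM, 1.37), Atf3 (6.08 to 13.5 CPM, 1.15) and Slc7a1 (4.56 to 10.1 CPM, 1.14) under the naming rule, and Cebpb (1.70) and Slc7a5 (1.60) named after their values were seen. These genes went up while Ddit3 stayed below its control level.

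Ddit4 was higher in microglia and the vascular classes too, and the part of ATF4 in this was not tested. The article also reports Ddit4 among the genes most raised in microglia at 3 d and links them to cellular stress, including hypoxia. In microglia Ddit4 rose from 7.14 CPM to 119 at 24 h and 64.5 at 3 d, with log2 ratios of 4.06 (3.67 to 4.48) and 3.17 (2.80 to 3.57). In endothelial cells it rose from 47.3 to 209 and 113 CPM (2.14 and 1.25), and in pericytes from 19.3 to 121 and 57.0 CPM (2.65 and 1.56). Apart from Ddit4, few targets passed the limit in these classes. The higher ones were Psat1, an enzyme of serine synthesis, in microglia at 24 h (15.4 to 40.9 CPM, 1.41) and Slc7a11 in pericytes at 3 d (15.2 to 40.9 CPM, 1.43), and the lower one was Atf3 in endothelial cells at 24 h (119.8 to 56.2 CPM, -1.09). The counts were 2 higher and 0 lower of 17 at 24 h and 1 and 0 of 17 at 3 d in microglia, 1 and 1 of 10 and 1 and 0 of 12 in endothelial cells, and 1 and 0 of 7 and 2 and 0 of 13 in pericytes.

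Neurons went the other way, with 1 of 18 targets higher and 5 lower at 24 h and a median of -0.41. The higher gene was Nupr1 (8.70 to 19.9 CPM, 1.19). The lower genes rest on few UMIs at 24 h: Slc7a11 on 5 (24.6 to 4.97 CPM, -2.31, -3.95 to -1.05), Atf3 on 4 (14.3 to 3.97 CPM, -1.85, -3.76 to -0.44), Psat1 on 4 (14 to 3.97 CPM, -1.82, -3.73 to -0.40) and Slc7a5 on 5 (11.4 to 4.97 CPM, -1.20, -2.87 to 0.09, an interval that includes 0). Phgdh, named after its values were seen, had 12 (-1.28, -2.26 to -0.44). At 3 d 0 of 20 were higher and 2 lower, Atf3 (14.3 to 6.19 CPM, -1.21) and Slc6a9 (-1.80), the latter named after its values were seen. In neurons at 24 h 9.03% of all genes were lower.

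In dividing progenitors 3 of 19 targets were higher and 2 lower at 24 h, with a median of -0.24. Slc38a2 rose from 238 to 833 CPM (1.80, 1.66 to 1.95) and Cebpb from 9.91 to 30.4 CPM (1.62, 0.84 to 2.38), with Atf3 (1.35) named after its values were seen. Slc7a11, with 7 UMIs at 24 h (25.1 to 7.59 CPM, -1.72, -3.08 to -0.62), and Eif4ebp1, with 6 (14 to 6.51 CPM, -1.10, -2.62 to 0.12, an interval that includes 0), passed the limit downward. At 3 d, when Asns was higher, 3 of 22 were higher and 0 lower, with a median of 0.42, and all 3 were named after their values were seen. They were Gdf15, with 0 and 36 UMIs and at least 10.6-fold higher with the control set to 3 UMIs, Slc6a9 (1.63) and Cth (1.5).

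Aminoacyl-tRNA synthetases, a textbook group of ATF4 targets of which 11 of 12 listed symbols were found, moved by small amounts, with a shared sign in some classes and times only. In astrocytes at 24 h all 11 had positive log2 ratios, from 0.16 to 0.97, and none passed the limit. Their median was 0.42, against 0.01 over all genes. In dividing progenitors at 3 d 10 of 11 were positive, with a median of 0.37 against 0.04 over all genes. In microglia 10 of 11 were positive at 24 h, with a median of 0.10 against 0.05 over all genes. In oligodendrocytes 9 of 11 were positive at 3 d, with a median of 0.06, the same as over all genes (0.06). At 24 h 5 were positive and 6 negative in oligodendrocytes, neurons and progenitors each, and in endothelial cells 8 of 11 were negative at 24 h and 9 of 11 at 3 d. Iars in pericytes at 3 d (13.8 to 30.2 CPM, 1.13) was the only synthetase past the limit in any class and time.

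Among the 7 eIF2α kinases and phosphatase subunits, Ppp1r15a, which encodes the stress-induced subunit GADD34 that reverses eIF2α phosphorylation, was the only gene past the limit at 24 h. It rose in oligodendrocytes from 8.20 to 25.8 CPM (1.65, 0.86 to 2.45) and in astrocytes from 11.5 to 30.2 CPM (1.40, 0.97 to 1.83), where it is named after its values were seen. At 3 d Eif2ak2 in pericytes (1.04, -0.04 to 2.27, from 9 and 38 UMIs, named after its values were seen) was the only gene past the limit. Among the 7 other sensors and proteases of the unfolded protein response, 2 were lower, Atf6b (-1.52, -3.44 to -0.10) and Creb3l2 (-1.67, -4.77 to 0.29) in neurons at 24 h, both named after their values were seen, and 0 were called elsewhere.

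Of the 16 other ER chaperones and folding enzymes, most had the sign of Hspa5 in oligodendrocytes. At 24 h 0 of 16 were higher and 4 lower, against 3.67% and 6.81% of all genes, with a median of -0.55 against -0.03 over all genes, and 14 of 16 had negative log2 ratios, with the highest at 0.45. Pdia6, a disulfide isomerase, fell from 122 to 44.9 CPM (-1.43, -1.87 to -1.02), and Sdf2l1, a partner of BiP, from 34.0 to 13.3 CPM (-1.35, -2.21 to -0.59). Calr, the calcium-binding chaperone of glycoproteins, fell from 240.0 to 107 CPM (-1.16, -1.44 to -0.89). Creld2 fell from 15.8 to 7.49 CPM (-1.08), and is named for 24 h after its values were seen. At 3 d 0 were higher and Creld2 was lower (7.18 CPM, -1.14), with 13 of 16 negative and a median of -0.31.

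In the other classes few chaperones passed the limit. Sdf2l1 was lower at 24 h in astrocytes (11.7 to 5.62 CPM, -1.06) and dividing progenitors (16.0 to 5.42 CPM, -1.56), and Creld2 passed the limit downward in neurons from 4 UMIs at 24 h (8.19 to 3.97 CPM, -1.04, -2.98 to 0.41, an interval that includes 0). At 24 h 13 of 16 ratios were negative in neurons (median -0.32), 12 of 16 in pericytes (-0.35), 10 of 16 in dividing progenitors, 9 of 16 in astrocytes, 9 of 15 in endothelial cells and 5 of 16 in microglia. At 3 d 0 were called outside oligodendrocytes, and negative ratios outnumbered positive ones in microglia and astrocytes (14 of 16 each), pericytes (15 of 16), endothelial cells (13 of 15) and dividing progenitors (10 of 16), with 8 of 16 in neurons. The 3 d median in pericytes, -0.46, is below that in oligodendrocytes.

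ER-associated degradation, a list of 12 genes, moved little, with Edem1 higher in endothelial cells at 3 d (14.3 to 29.6 CPM, 1.04), Selenos lower in neurons at 24 h (-1.25, named after its values were seen) and 0 others called. In oligodendrocytes at 24 h its median log2 ratio was 0.07, unlike that of the chaperones. The 6 mitochondrial chaperones and proteases had 0 called in any class and time, with medians between -0.41 and 0.28. Of the dissociation and immediate early genes, microglia had 1 of 18 higher and 0 lower at 24 h and 0 changed at 3 d. In endothelial cells 1 of 18 was higher and 0 lower at each time, and in pericytes 0 of 15 changed at 24 h and 1 of 17 was higher and 1 lower at 3 d.

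**Figure D3:**
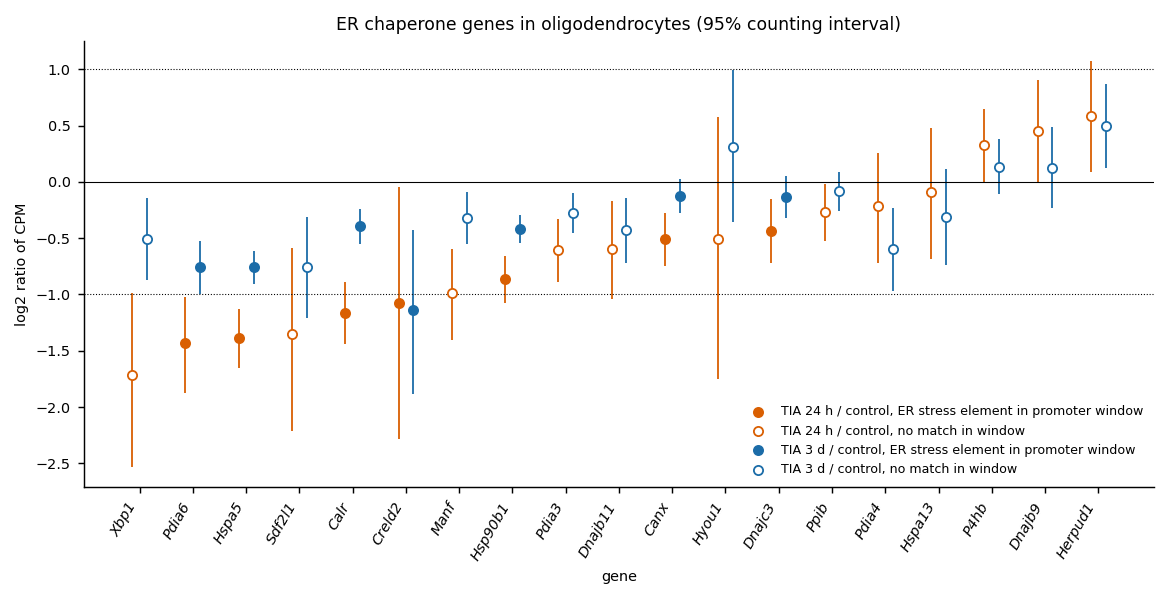
Log2 ratio of CPM (y axis) of the 3 ER chaperone arm genes and 16 other ER chaperones and folding enzymes (x axis) in oligodendrocytes at 24 h and 3 d against control, with 95% counting intervals as bars. Filled points mark genes with an ER stress element in the promoter window, all of which lie below 0 at both times. Open points include Hyou1, Manf and Hspa13, whose windows were not in the reference and were not searched.

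Genes whose levels follow those of a member were sought over 21 points, the 7 classes in 3 libraries, which share libraries and depth. For Hspa5 the 5 with the highest Pearson correlation of log2(CPM + 1), among 2815 genes, were Pdia3 (0.96), Hsp90b1 (0.96), Calr (0.95), Spcs2 (0.91) and Pdia6 (0.91). Of these 4 are on the chaperone list and Spcs2 encodes a subunit of the ER signal peptidase. For Atf4 they were Ddx21 (0.90), Fos (0.90), Ube2d3 (0.88), Fam76b (0.87) and Cebpg (0.85), among 2815 genes, of which Cebpg is on the list of ATF4 targets and Fos on that of dissociation genes. For Ddit3 they were Man2a2 (0.72), Zmynd8 (0.70), Pik3r1 (0.68), Clcn4 (0.68) and Bcl9l (0.67), among 6896 genes, none of them on a list. Each correlation is a description over points that are not independent.

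Since most ER chaperones of oligodendrocytes had the same sign, promoters were searched for known motifs. Windows of 300 bases, from 250 before to 50 after the start of the gene, came from RefSeq (GRCm38.p6) and were found for all 10 members. The ER stress element, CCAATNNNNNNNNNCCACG on either strand, was present in 39 of 32851 promoters (0.119%). Among the members only Hspa5 held it, at 65 bases before the start, and of the chaperone list Calr, Canx, Creld2, Dnajc3, Hsp90b1 and Pdia6 did. The windows of Derl3 and Syvn1, on the degradation list, also held it. Those of Hyou1, Manf and Hspa13, on the chaperone list, were not in the reference and were not searched. Of the ER list genes tested in oligodendrocytes at 24 h whose window was in the reference, the 8 with a match all had negative log2 ratios, 4 of them past the limit, with a median of -0.97. The 17 without a match had 9 negative, 2 past the limit (Xbp1 and Sdf2l1) and a median of -0.12. At 3 d the medians were -0.41 and -0.07. Of the 17 genes without a match, 8 are on the degradation list, so that this split is in part a split by list. Among the listed chaperones and Hspa5 alone, a comparison added after the data were seen, the 7 with a match had a median of -1.08 at 24 h, with 4 past the limit, and the 7 without had -0.27, with 1 past it. At 3 d these medians were -0.42 and -0.27. Matched genes had the lower median in 13 of 14 combinations of class and time over all ER lists. The exception was neurons at 3 d (0.08 against 0.05). Among the chaperones and Hspa5 they had it in 10 of 14. The exceptions there were microglia, pericytes and neurons at 3 d and dividing progenitors at 24 h. The direction is thus not particular to oligodendrocytes. These combinations reuse the same genes and share libraries, so they are not independent and the tally is a description. A match is a description and does not show that a factor binds there. The element is shown with 30 bases on each side for Hspa5 and for the 3 other genes with a match that fell at 24 h, with the CCAAT and CCACG parts (or their reverse complements) in capitals, each 5′ to 3′ on the strand of the gene. The stretches are chr2:34771995-34772073 (plus strand) for Hspa5, chr12:17266461-17266539 (plus) for Pdia6, chr8:84847045-84847123 (minus) for Calr and chr15:88819490-88819568 (plus) for Creld2.
Hspa5: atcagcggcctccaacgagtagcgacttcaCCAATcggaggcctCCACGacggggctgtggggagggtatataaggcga
Pdia6: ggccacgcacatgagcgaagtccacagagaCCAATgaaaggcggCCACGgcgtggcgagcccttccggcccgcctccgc
Calr: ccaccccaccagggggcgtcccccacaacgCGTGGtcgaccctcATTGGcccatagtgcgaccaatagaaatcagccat
Creld2: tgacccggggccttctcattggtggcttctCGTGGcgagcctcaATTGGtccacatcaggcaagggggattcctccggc

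The ATF4 composite site, TGATGNAA on either strand, was present in 1304 of 32851 promoters (3.97%). Among the members it was found before the start in Asns, Chac1 and Herpud1, and after the start in Trib3. Xbp1, which fell in oligodendrocytes at 24 h, held neither this site nor the ER stress element in its window. Genes whose window was not in the reference, among them Slc7a5 and Eif4ebp1, were left out of this comparison. In oligodendrocytes at 24 h the 9 tested genes of the ATF4 lists with a match had a median log2 ratio of 0.06, and the 13 without had 0.00. In astrocytes at 24 h these medians were 0.42 over 9 genes and 0.60 over 19. The UPR element, TGACGTGG, was present in 0.676% of promoters and in none of the members. The 3 matches before the start are shown in capitals with up to 30 bases on each side, as the motif or its reverse complement on the strand of the gene, because these are the members with the site there. They lie at chr6:7693210-7693262 (minus strand) for Asns, chr2:119351019-119351086 (plus) for Chac1 and chr8:94386287-94386354 (plus) for Herpud1.
Asns: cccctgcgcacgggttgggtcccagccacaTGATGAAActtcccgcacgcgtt
Chac1: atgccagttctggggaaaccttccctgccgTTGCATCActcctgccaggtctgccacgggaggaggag
Herpud1: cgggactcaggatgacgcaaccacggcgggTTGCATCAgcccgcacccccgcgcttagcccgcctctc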

How the data were processed

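Gene counts deposited by the authors (UMIs, Cell Ranger 7.1.0 in the matrix header, 3.1.0 in the submitters' notes, mm10) were used. The analysis kept cells with at least 500 genes and at most 7% mitochondrial UMIs. Kept cells of the 3 libraries were clustered together in Seurat 5.3.0 (R 4.3.3: log-normalization, 2000 variable genes, regression on UMIs and mitochondrial share, 20 principal components, resolution 0.5), and clusters were named from marker lists. Doublets were called with Scrublet (scanpy 1.11.5) and left in, except in an alternative. UMIs were summed per class and library and scaled to CPM, with exact Poisson intervals for levels and exact binomial intervals for ratios (Python 3.11.15, numpy 2.4.6, scipy 1.17.1, matplotlib 3.10.9). A library at 0 was set to 3 UMIs for a bound. Members and lists were chosen with earlier results of these data known. List genes are named, by a rule written beforehand, when they have at least 50 UMIs and a 2-fold ratio in a class and time (where more than 6 pass, the 3 highest and 3 lowest ratios), and the text marks names outside it. Counts and intervals were tested on simulated data.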

Additional observations from a re-analysis of the deposited data

Results flagged for a closer look

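Cell classes differed in the direction of 3 genes, and none of these differences was tested. At 24 h the log2 ratio of Ddit3 was 0.99 in astrocytes and -0.93 in oligodendrocytes, a difference of 1.93. At 24 h that of Hspa5 was 0.25 in microglia and -1.39 in oligodendrocytes, a difference of 1.64, and at 3 d it was 0.27 in dividing progenitors and -0.76 in oligodendrocytes, a difference of 1.03. The 24 h ratio of Hspa5 was -0.11 (-0.20 to -0.01) in the larger microglial cluster and 0.46 (0.33 to 0.59) in the smaller. Its 3 d progenitor ratio was 0.11 when only cells failing both filters were left out and 0.12 when every cell weighed the same. At 24 h that of Xbp1 was 0.28 in microglia and -1.72 in oligodendrocytes, a difference of 2.00.

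A signal also appears in the cells that the filters left out (786, 394 and 724 in control, 24 h and 3 d), which the reported comparisons do not use, although the literal filter keeps those that fail only 1 of the 2 limits. Atf4 there was 19.6 CPM in the control and 48.4 at 24 h, from 58 and 54 UMIs, a log2 ratio of 1.30 (0.74 to 1.86). At 3 d Atf4 was 36.8 CPM in these cells, from 87 UMIs, a log2 ratio of 0.91 (0.41 to 1.41), below the limit. Atf5 there was 4.39 CPM in the control and 11.4 at 3 d, from 13 and 27 UMIs, a log2 ratio of 1.38 (0.37 to 2.46). Its 24 h log2 ratio was 1.41 (0.18 to 2.63), from 13 and 13 UMIs, too few to be tested. The unnamed clusters (417, 55 and 305 cells) were kept but likewise not compared. A shallow cluster (median 2047 UMIs) held 289, 24 and 145 of these cells. A cluster with F13a1 and Pf4 among its leading genes held 60, 22 and 107. A cluster led by haemoglobin genes held 68, 9 and 53. Their shares differed between libraries, and the part of this in the ratios was not tested. Pooled over these clusters, the 24 h log2 ratios were 0.58 for Hspa5 (0.41 to 0.75), 0.69 for Xbp1 (0.29 to 1.07) and 0.49 for Atf4 (0.08 to 0.89). Those of Herpud1 (0.09) and Ddit3 (-0.25) had intervals that include 0, and none of these ratios passed the limit. The cause was not tested in either set of cells, and their difference from the cells of the named classes was not tested.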

How the results depend on the processing

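Each choice was changed by itself. Of 900 member ratios under 11 settings, 885 stayed inside the interval of the reported value and 15 did not. Hspa5 and Xbp1 in oligodendrocytes at 24 h stayed at least 2-fold lower in each of the 10 settings that compared the class, from -1.59 to -1.34 and from -2.49 to -1.54, and the 5% mitochondrial limit left 32 cells of the class at 24 h, too few. At resolutions 0.2 and 1 and with list genes out of the clustering, the class kept its numbers of cells and both ratios were those reported. These settings therefore did not vary the class, and their repeated values count among the 885. Asns in neurons at 24 h turned to -0.16 without doublets and -1.60 without the 5 cells with the most of its UMIs. Taking 5 cells from each library removes a larger share of a small library, so that this setting lowers 24 h ratios by construction, also that of Asns in dividing progenitors (-1.15). The count of members higher at 24 h, 1 as reported, was 0 under the literal filter (only cells failing both limits left out), resolution 1, no regression, list genes out of the clustering, the 5 top cells out, and a minimum of 100 UMIs. It was 2 without doublets, with cells at most 0.1% other-class markers, and with every cell weighing the same (Ddit3 and Sesn2 in astrocytes, not Asns in neurons), 4 with no minimum and 10 at 1.5-fold, and at 5% mitochondrial the 1 was Ddit3 in astrocytes. The count lower at 24 h, 2 as reported, was 4 under the literal filter, 0 at 5% mitochondrial, 5 without the 5 top cells, 3 with every cell weighing the same, 4 with no minimum and 6 at 1.5-fold. The count higher at 3 d, 1 as reported, was 0 under the literal filter and median-ratio scaling, 0 at 5% mitochondrial, 0.1% markers, resolutions 0.2 and 1, no regression and list genes out, where dividing progenitors had under 50 cells at 24 h and Asns was not compared, 3 with no minimum and 5 at 1.5-fold. It stayed 1 without doublets and with every cell weighing the same, but the member was Sesn2 in dividing progenitors (1.15 and 1.31) and not Asns. The count lower at 3 d, 0 as reported, was 1 under 0.1% markers and 3 at 1.5-fold. Lower minimums and folds let in more members by construction, and a class under 50 cells in a library was not compared. The cause of the other moves was not tested. A limit of at most 1 UMI of other-class markers gave no value, because each class came under 50 cells in some library, and the 0.1% alternative was chosen in its place after seeing the data. Depth limits Trib3, Chac1 and Asns most, with 16 UMIs of Chac1 in the kept control cells.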
